A study of Bos taurus with 3 samples.

Results

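The 2 long non-coding RNAs described here are MALAT1 and 2900097C17Rik (homolog), named in the files after a mouse transcript and below called the homolog. They were chosen by gene name from a list of Argonaute binding sites in bovine retina, and they hold 8 of its 402 sites: 2 in MALAT1 and 6 in the homolog. The list came from Argonaute HITS-CLIP, in which RNA is fixed by ultraviolet light to the proteins that touch it, Argonaute is pulled down, and the attached RNA fragments (tags) are sequenced. The tissue was dissected retina of cattle of mixed strain, in 3 replicates of 1 group, with no control pull-down and no label on whether the replicates came from separate animals. Spread between replicates may therefore be technical. The choice of these transcripts rested on their tags, which place them among the genes with the most, so their heights are given as a description and not tested.

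Argonaute proteins carry microRNAs (miRNAs) to matching stretches of other RNAs and, in the cytoplasm, lower the stability and translation of messenger RNAs. Long non-coding RNAs, which are not translated, can be bound in the same way. MALAT1 is an abundant, mostly unspliced nuclear RNA known from human and mouse cells, where it gathers in speckles that hold splicing factors. 2900097C17Rik is the earlier mouse symbol of Norad, which in human and mouse cells is a largely cytoplasmic RNA known for binding PUMILIO proteins and for a role in keeping chromosome number stable. The files do not use that later name, and they do not say how the bovine homolog was identified.

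Facts of the whole list bear on every value below. A site is a peak found in each of the 3 replicates, and the tags in all 402 sites summed to 6421, 5779 and 4114 in replicates 1, 2 and 3. These sums cover listed sites only and are not library depths, which no source used here gives. GNAT1, PDE6G and SAG, genes of rod photoreceptors, carried listed sites, with 5 in GNAT1, 3 in PDE6G and 7 in SAG. In all 1206 peaks the length exceeded the tags by 19 nt or more, and no summit had a pile-up above 20 overlapping tags. Tag counts may thus be bounded, and intervals given below cover counting error only.

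Together the transcripts make up all sites of the authors' non-coding RNA class that lie outside miRNA genes: the class held 30 sites, 8 in these transcripts and 22 in miRNA genes. The member sites averaged 11 to 64 tags, with a median of 24.2, against 5.33 to 16.3, with a median of 8.50, in the miRNA gene sites. They were also longer, at a mean peak length of 111 to 345 nt against 25 to 71 nt in the miRNA gene sites. The ranges of length thus did not overlap, but the median over all 402 sites, 73.5 nt, also lay above every miRNA gene site. The gap in length is thus not particular to these transcripts. If tags are bounded by peak length as described above, shorter peaks can hold fewer. As a share of that bound the medians had the reverse order. The median was 19.6% in the member sites (8.41 to 68.1), 44.5% in the miRNA gene sites (15.9 to 96.7) and 23.7% over all sites. Whether the member sites had more tags than their length would allow for was not tested. None of 29 other names of long non-coding RNAs, among them NEAT1, MEG3 and TUG1, stood in the files. The 29 also include NORAD, the later name of 2900097C17Rik, so that name does not stand for a further transcript without a site. Only 6 of the 29 matched RefSeq's gene table (assembly ARS-UCD2.0), in which neither member matched, so this count says little about other transcripts.

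MALAT1 had 110, 141 and 128 tags in replicates 1, 2 and 3, which is 126 ± 15.6 (SD, n = 3). The homolog had 109, 226 and 100 tags, or 145 ± 70.3 (SD, n = 3). The transcripts were level in replicate 1, and the homolog's higher mean rested on replicate 2. Without that replicate the homolog averaged 104.5 tags and MALAT1 119. By tags per gene the homolog ranked 3rd, 1st and 2nd of the 280 named genes in replicates 1, 2 and 3, and MALAT1 ranked 2nd, 2nd and 1st.

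As a share of the tags in all listed sites, MALAT1 held 1.71% in replicate 1 (95% Wilson interval 1.42 to 2.06), 2.44% in replicate 2 (2.07 to 2.87) and 3.11% in replicate 3 (2.62 to 3.69). The homolog held 1.70% in replicate 1 (1.41 to 2.04), 3.91% in replicate 2 (3.44 to 4.44) and 2.43% in replicate 3 (2.00 to 2.95). Both shares were lowest in replicate 1, whose interval did not overlap the interval of replicate 2 for either transcript; MALAT1 was highest in replicate 3 and the homolog in replicate 2.

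**Figure D1:**
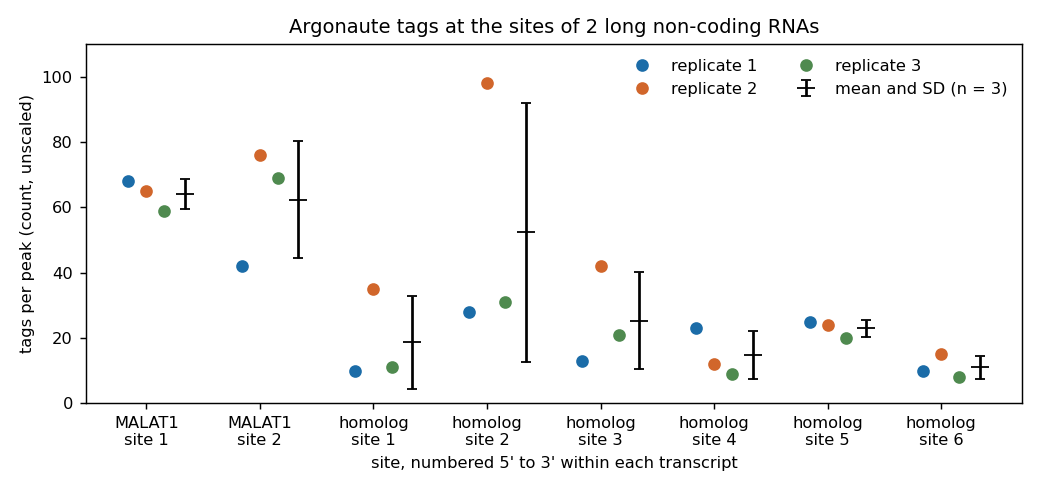
Unscaled tags of each site in each replicate (coloured points), with the mean and SD over the 3 replicates beside them (black). MALAT1 site 1 lies between 59 and 68 tags, while site 2 of the homolog has 28, 98 and 31 tags in replicates 1, 2 and 3.

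MALAT1 site 1, the more 5' of its sites on the plus strand, spanned chr29:45344020-45344138 in the authors' coordinates, whose build no source used here names. It had 68, 65 and 59 tags in replicates 1, 2 and 3, or 64 ± 4.58 (SD, n = 3). The unscaled tags lay close together, but other scales spread them: 68, 74.5 and 92.8 tags with the replicates scaled by their median ratio over sites, and 68, 85.7 and 122 at relative depths read from the fold enrichment. By mean unscaled tags the site was the tallest of the 370 named ones. Its peaks were 119, 113 and 107 nt long and ended at the same base in every replicate. A shared higher coordinate, which is the 5' end on the minus strand, was found at 19 of the 402 sites. No other site of these transcripts had one. The summits lay at 45344090, 45344088 and 45344111, so replicates 1 and 2 placed the summit 2 nt apart and replicate 3 further 3'.

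The same site was the densest of the whole list. It held 57.1, 57.5 and 55.1 tags per 100 nt of peak in replicates 1, 2 and 3, whereas the densest of the 394 other sites averaged 35.5 and their median was 14.8. The summit pile-up was 20, 20 and 18, at or just under the highest value of any peak, which 10 of the 1206 peaks reached. Its tags came to 68%, 69.1% and 67% of the number that the 19 nt difference would allow for peaks of its length, a share that ranked 18th of the 402 sites. How far such a bound limited the tags counted was not tested.

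MALAT1 site 2 spanned chr29:45345377-45345862 and had 42, 76 and 69 tags, or 62.3 ± 18 (SD, n = 3). Replicate 1 was the low one. The peaks were 236, 314 and 486 nt long, with the longest in replicate 3, and averaged 345 nt, the 4th longest of all sites. The summits, at 45345543, 45345553 and 45345567, stayed within 24 nt. Both MALAT1 sites had nearly the same mean tags, yet site 2 was a broad peak with 17.8, 24.2 and 14.2 tags per 100 nt and a pile-up of 11, 16 and 15, while site 1 was a compact one. Site 1 held 61.8% of the MALAT1 tags in replicate 1 (95% Wilson interval 52.5 to 70.4) and 46.1% in both replicate 2 (38.1 to 54.3) and replicate 3 (37.7 to 54.7).

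**Figure D2:**
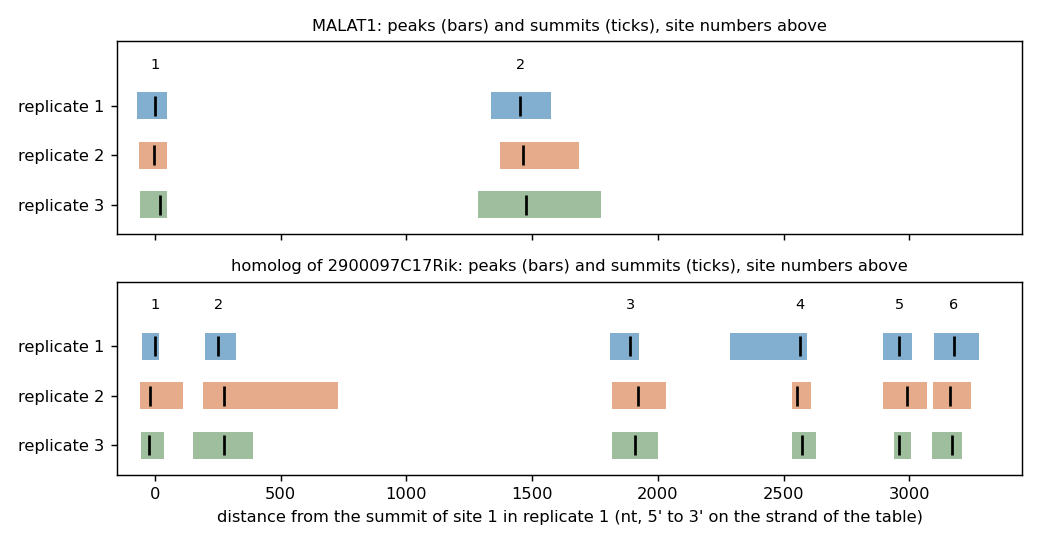
Peaks (bars) and summits (black ticks) of each replicate along MALAT1 (top) and the homolog (bottom), as the distance in nt from the summit of site 1 in replicate 1, running 5' to 3' on the strand of the authors' table. The MALAT1 sites lie 1458 nt apart, and the homolog's sites form a group of 2 and a group of 4 on either side of the longest stretch with no site.

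The homolog's sites lay on the minus strand of chromosome 13 and are numbered here from the 5' end of that strand, that is from the highest coordinate down. Site 1 spanned chr13:65758982-65759153, site 2 chr13:65758368-65758941 and site 3 chr13:65757060-65757282. Site 4 spanned chr13:65756465-65756806, site 5 chr13:65756025-65756199 and site 6 chr13:65755819-65756005. The files give neither the ends of the transcript nor its length, so positions are relative to the sites themselves.

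Spacing differed between the transcripts. The mean summits of the MALAT1 sites were 1458 nt apart, and 1238 nt without a peak lay between them. In the homolog the 6 sites covered a stretch of 3335 nt, of which their joint extents took up 50.2%. Going 5' to 3', neighbouring mean summits were 280, 1641, 656, 407 and 198 nt apart. The stretches free of peaks between them were 40, 1085, 253, 265 and 19 nt, so sites 1 and 2 formed a 5' group and sites 3 to 6 a 3' group.

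The distance between neighbouring summits varied by 12 to 52 nt between replicates. The MALAT1 summits were 1453, 1465 and 1456 nt apart in replicates 1, 2 and 3. Between the homolog's groups the summits of sites 2 and 3 were 1639, 1649 and 1635 nt apart. The shortest distance, between sites 5 and 6, was 215, 170 and 209 nt, and it varied by 45 nt. In each replicate every pair of neighbouring peaks stayed separate, with 24 nt between the closest pair, sites 5 and 6 in replicate 2. The summits of a single site scattered over 15 to 32 nt at the 8 sites, all above the median of 9 nt over the 402 sites. No listed site had summits more than 39 nt apart, even where peaks were far longer. Close summits may thus be a condition for listing a site, which was not tested.

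Few genes had as many sites in so short a stretch. Of the 10 named genes with 4 or more sites, the homolog had the second shortest span between outermost mean summits, 3182 nt, after GNAT1, the gene of the rod transducin alpha subunit, with 2380 nt. TNPO1, a nuclear import receptor, spanned 4448 nt, and the others 8586 nt (RBP3, a retinoid carrier) to 57161 nt (HIPK3, a protein kinase). The median distance between neighbouring summits was 407 nt in the homolog, the shortest of the 10, and 577 nt in GNAT1. These are distances in the genome, which include any intron between the sites.

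Within the homolog, site 2 was the tallest. It had 28, 98 and 31 tags in replicates 1, 2 and 3, or 52.3 ± 39.6 (SD, n = 3). Replicate 2 stood far above the others. Its peaks were 123, 535 and 239 nt long, and the summits, at 65758842, 65758820 and 65758821, fell within 22 nt. The peak of replicate 2 thus reached well past the others on its 3' side, while the summit pile-up was 10, 13 and 10. The authors' −log10 p, multiplied by 10, was 1014, 3100 and 1160 for these peaks, and 3100 is the highest value in the files. It is a round value, and whether it is a limit of the scale that other peaks share was not tested.

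Sites 1 and 3 had the same order of replicates. Site 1 had 10, 35 and 11 tags in peaks of 70, 172 and 92 nt, with a pile-up of 6, 12 and 8. Site 3 had 13, 42 and 21 tags in peaks of 114, 216 and 184 nt, with a pile-up of 5, 12 and 8. In both, replicate 2 had the most tags, the longest peak and the highest pile-up.

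The more 3' sites were mixed. Site 4 had 23, 12 and 9 tags, with the most in replicate 1, whose peak of 305 nt compares with 76 and 97 nt in the others. Its pile-up of 5, 7 and 5 and its density of 7.54, 15.8 and 9.28 tags per 100 nt were highest in replicate 2. Site 5 had 25, 24 and 20 tags, or 23 ± 2.65 (SD, n = 3), with the least spread of the homolog's sites in unscaled tags, in peaks of 114, 175 and 69 nt. At relative depths read from the fold enrichment it had 25, 32.7 and 47.6 tags, and site 4 varied less, with 23, 16.4 and 21.4. The density of site 5, 21.9, 13.7 and 29.0 tags per 100 nt, was the highest of the homolog on average and lowest in replicate 2. Site 6 had 10, 15 and 8 tags, with the most in replicate 2, in peaks of 179, 152 and 123 nt and a pile-up of 3 in every replicate, the lowest mean pile-up of any listed site, shared with 1 other.

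**Figure D3:**
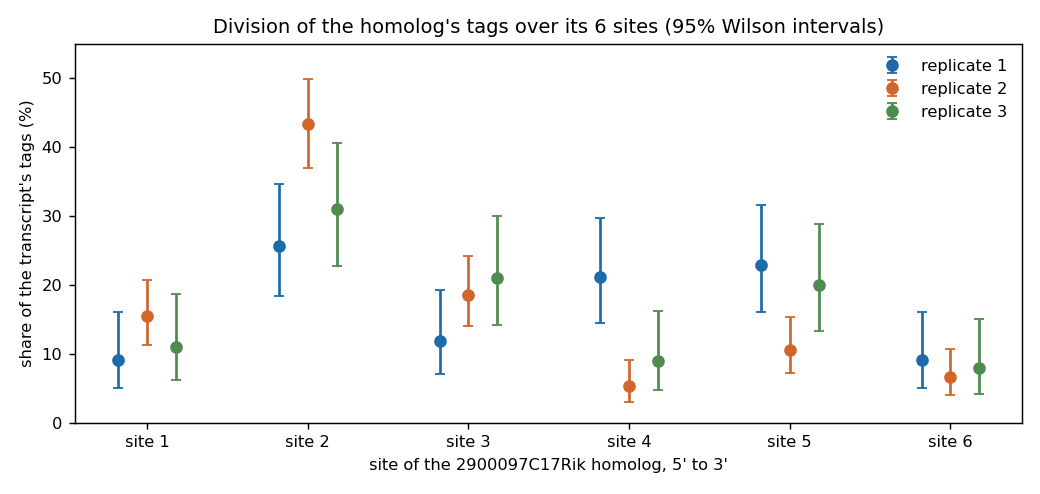
Share of the homolog's tags found at each of its 6 sites in each replicate, with 95% Wilson intervals for counting error. Site 2 takes 43.4% in replicate 2, against 25.7% and 31% in replicates 1 and 3, and site 4 takes 21.1% in replicate 1, against 5.31% and 9% in replicates 2 and 3.

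The division of tags along the homolog differed between replicates. The 5' group, sites 1 and 2, held 38 of 109 tags in replicate 1 (34.9%, 95% Wilson interval 26.6 to 44.2), 133 of 226 in replicate 2 (58.8%, 52.3 to 65.1) and 42 of 100 in replicate 3 (42%, 32.8 to 51.8). The share of replicate 2 lay above both others, with no overlap of its interval with theirs. The summed peak lengths moved with it: the 5' group's peaks covered 193, 707 and 331 nt in replicates 1, 2 and 3, and those of the 3' group 712, 619 and 473 nt. The part of peak extent in these shares cannot be told apart from that of tags.

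Whether a site's tags varied over the replicates beyond counting noise was tested by an exact multinomial test on all 402 sites, with Benjamini-Hochberg adjustment over them and the replicates scaled by their median ratio over sites. Of all sites 4.98% were called, and 4 of the 8 sites in these transcripts were. The transcripts were chosen with their tags known and a taller site is called more readily, so this count is a description. Of the 7 sites with at least the mean tags of homolog site 2, 5 were called: 2 of the 3 in these transcripts and 3 of the 4 others. Of the 64 sites with at least the mean tags of homolog site 1, 13 were called: 4 of the 6 in these transcripts and 9 of the 58 others. Both cuts are the mean tags of called homolog sites, and the uncalled homolog sites 4 and 6 fall below them. These counts are therefore a description too. At or above 11.3 mean tags, the lowest of any called site, stood 173 sites, 7 of them in these transcripts. Of these 173 sites 20 were called, 4 of them in these transcripts. The 4 calls were homolog site 2 (adjusted p = 2.61e-10, exact multinomial test), MALAT1 site 2 (9.23e-05), homolog site 3 (0.00219) and homolog site 1 (0.00300). The other sites were not called, with adjusted p = 0.700 at MALAT1 site 1 and 0.750, 0.961 and 0.881 at homolog sites 4, 5 and 6 by the same exact test.

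The called sites of the homolog were high in replicate 2 and that of MALAT1 was low in replicate 1. With tags scaled to replicate 1, homolog site 2 had 28, 112 and 48.7 tags in replicates 1, 2 and 3, and homolog sites 1 and 3 had 40.1 and 48.1 in replicate 2 against 10 and 13 in replicate 1. MALAT1 site 2 had 42, 87.1 and 108 scaled tags. Without replicate 2 all 3 homolog calls were lost (adjusted p = 0.845, 0.409 and 0.196 at sites 1, 2 and 3 by the exact binomial test), while MALAT1 site 2 was called (0.000215), as were 1.99% of all sites. Without replicate 1 the calls of MALAT1 site 2 (adjusted p = 1) and of homolog sites 1 and 3 (0.432 and 1, exact binomial test) were lost. Homolog site 2 was still called (adjusted p = 0.00211, exact binomial test), among 1.49% of all sites. With the replicates scaled by the inverse of the fold enrichment step, which was added with the data in view, the same 4 sites were called, among 5.97% of all sites (exact multinomial test, adjusted p from 6.18e-13 to 0.000380).

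The calls ended when peak length entered the test. With the expected tags of each replicate made proportional to its peak length, none of the 8 sites was called (adjusted p from 0.206 to 0.989, exact multinomial test), and 0.498% of all sites were. A peak's length also grows with its tags, so this setting also takes out differences in tags that go with extent. At 3 of the 4 called sites, those of the homolog, the longest peak held the most unscaled tags. The same held at 15 of the 16 called sites elsewhere and at 64.7% of all sites. At MALAT1 site 2 the longest peak was that of replicate 3. Replicates 2 and 3 had 76 and 69 unscaled tags there, but 87.1 and 108 on the scale of the test.

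**Figure D4:**
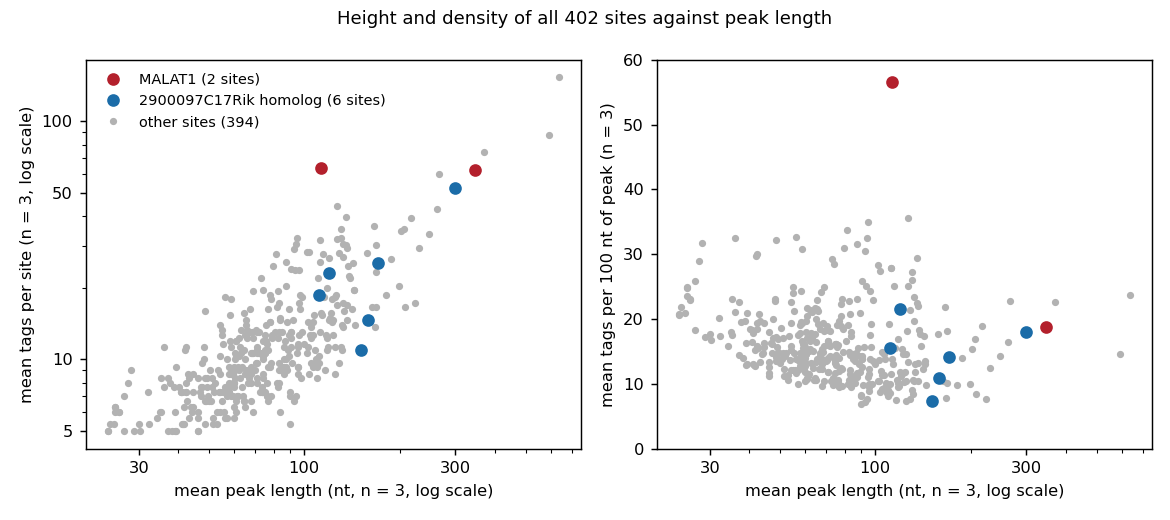
Mean tags per site (left) and mean tags per 100 nt of peak (right) against mean peak length, for the sites of MALAT1 (red), of the homolog (blue) and the 394 other sites (grey); the length axes and the left vertical axis are logarithmic. MALAT1 site 1 stands at 56.6 tags per 100 nt, above every other site, while MALAT1 site 2 and the homolog's sites lie among the others, at 7.32 to 21.5.

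Among all 402 sites in order of mean tags, MALAT1 sites 1 and 2 were 4th and 5th, below 3 sites without a gene name, and the homolog's site 2 was 7th. The site just above MALAT1 site 1 was an unnamed mitochondrial one with 73, 56 and 94 tags. Just below MALAT1 site 2 came the tallest GNAT1 site, in the 3' UTR, with 63, 80 and 37 tags, and then homolog site 2. CMTM4, with a 3' UTR site of 48, 42 and 43 tags, followed the homolog. With SDs of 4.58 to 39.6 tags, the order from MALAT1 site 1 to homolog site 2 is within the spread between replicates. The homolog's other sites ranked 39th to 174th, so all 8 sites were taller than the median site, at 10.3 tags, and longer than the median, at 73.5 nt. Their density, outside MALAT1 site 1, ranked 65th to 400th of 402, on both sides of the median.

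Leaving out the other transcript, the genes most like these transcripts in tags per replicate were the same for both. The distance uses unscaled totals, in which both transcripts ranked near the top, so shared neighbours say little beyond height. By the distance between log2(tags + 1) summed per gene over the 3 replicates, MAP1B, a microtubule-associated protein of neurons, was nearest, at 0.59 from MALAT1 and 0.87 from the homolog, with 149, 134 and 97 tags in 7 sites. GNAT1 followed at 0.97 and 1.07, with 108, 121 and 66 tags, and PDE6G, the inhibitory subunit of rod phosphodiesterase, at 1.01 and 1.28, with 79, 104 and 74 tags. MALAT1 and the homolog were 0.76 apart, nearer than MAP1B was to the homolog. Each distance rests on 3 values per gene.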

How the data were processed

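The deposited files are 2 tables, 1 per strand, that pair each site with its peak in each of the 3 replicates. CASAVA 1.8.1 and GSNAP are named in the submitters' processing notes, with no role; no source used here names the peak caller, the build or the rule for listing a site. Per the file headers, each peak has a tag count, the −log10 of its p-value multiplied by 10, and a fold enrichment, a ratio to an undescribed background. Within a strand and replicate every deposited fold enrichment was a whole multiple of 1 step (within 1.86e-05 of a step), and the multiple was read as the summit pile-up. The inverse of the step was read as a relative depth, an assumption that was not tested. Relative to replicate 1 it was 0.758 on the plus and 0.734 on the minus strand in replicate 2, and 0.484 and 0.420 in replicate 3. Sites were found by gene name, ignoring case.

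The exact multinomial test ran over all 402 sites, of which 59 had an unadjusted p under 0.05. It was tested on simulated counts that had no peak lengths and no upper bound on tags, so the simulation does not cover the part of peak length. The significance threshold was an adjusted p of 0.05. Without 1 replicate it becomes an exact binomial test. Scripts used scipy 1.17.1, pandas 2.3.3, numpy 2.4.6 and, for plots, matplotlib 3.10.9, in Python 3.11.15. The transcripts, the list of other non-coding RNAs, the rule for other named genes (the nearest in tags, those with 4 or more sites, those next in height) and the tests were chosen with earlier results of these data known. PDE6G, SAG and CMTM4 came from that rule. The alternatives were other scales, peak length, left-out replicates, stricter sites and merged sites. Scaling by the inverse of the step, leaving out unnamed and mitochondrial sites and leaving out the tallest site were chosen after seeing the data.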

Additional observations from a re-analysis of the deposited data

How the results depend on the processing

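The count of 4 called sites was the same with both scales by summed tags, where 20 and 21 of all 402 sites were called. It was also the same with sites above the median −log10 p (13 of all 201 called) and with the fold enrichment steps as the scale (24 of 402). Without unnamed and mitochondrial sites it stayed the same too (17 of 370). It was 0 with expected shares times peak length (2 of all 402 called). Without replicates 1, 2 and 3 in turn it was 1, 1 and 4, where 6, 8 and 12 of all 402 sites were called. A stricter rule asked the 3 peaks to share at least 50% of their joint length. MALAT1 then kept 1 of its 2 sites and the homolog 1 of its 6. The median share over all 402 sites was 46.2%, also below that limit. The homolog had 2 sites with those within 1000 nt merged and 4 with those within 100 nt merged. The tags of MALAT1 averaged 119 to 134.5 and those of the homolog 104.5 to 167.5 with 1 replicate left out. As summed pile-up they were 33.3 and 47.3, at the depth of replicate 1 by the fold enrichment steps 187 and 218, and without the tallest site 62.3 and 92.7. No paired analysis was possible because there is 1 group. With a median site of 12, 10 and 7 tags in replicates 1, 2 and 3, counting error is wide: the exact 95% Poisson interval of 7 tags runs from 2.81 to 14.4 and that of 12 tags from 6.20 to 20.96.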
